A study of Mus musculus with 6 samples.

Results

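The genes described here encode the proteasome and the proteins that build, open or block it. They were chosen by name: every gene with its own probe sets whose symbol begins with Psm, a letter from a to g and a digit, without the immunoproteasome genes Psmb8 and Psmb9. This gave 47 genes, measured by 100 probe sets, out of 18193 genes and 34945 probe sets with 1 gene on the array. They divide into 8 genes of the alpha ring and 9 of the beta ring of the core, 9 of the base and 8 of the lid of the cap, 4 activators and inhibitors, 7 assembly factors, and 2 genes that match the naming pattern without being subunits. Psme2, which encodes the partner of the activator Psme1, was not among them, because its 1 probe set is annotated to Psme2 and Psme2b together.

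Regulatory T (Treg) cells hold immune responses in check and depend on the transcription factor Foxp3. The study compared Treg cells with and without Batf, an AP-1 factor that pairs with Jun proteins. Both groups came from C57BL/6 mice that carry FoxP3hCD2, a human CD2 reporter of Foxp3, and were CD4+ hCD2+ cells isolated from lymph node and spleen and measured without culture. One group of 3 arrays came from Batf+/+ mice and the other group of 3 arrays from Batf-/- mice. The labels used here name no Cre and give no age, sex, or number of animals behind an array. The replicates are therefore separate samples by label only, and the p-values measure the spread between them, which may be technical.

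The proteasome degrades proteins that carry ubiquitin. Its core is a barrel of stacked rings, in which the outer alpha rings form the gate and the inner beta rings hold the proteolytic sites. The cap binds ubiquitin chains, removes them and unfolds the protein with a ring of ATPases, and other activators can take the place of the cap. Lymphocytes also make an immunoproteasome, in which interferon-inducible catalytic subunits replace the standard ones, and cells that grow and divide need much proteasome activity. Cells raise many proteasome genes together through the transcription factor Nrf1 (gene Nfe2l1), which binds antioxidant response elements.

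The proteasome genes differed little between Batf-/- and Batf+/+ Treg cells. None of the 47 passed the threshold: at an adjusted p below 0.05 (limma, Benjamini-Hochberg over all genes) 0 were lower and 0 higher, where 0.83% and 0.313% of all genes were. Even at an unadjusted p below 0.05 the count was 0 of 47 by limma, against 7.69% of all genes. Log2 differences, Batf-/- minus Batf+/+, ran from -0.13 (Psmd2) to 0.18 (Psmb11), which is at most a 1.13-fold difference, and 87.1% of all genes lay no farther from 0. The median over the 47 was 0.012, with 29 genes above and 18 below 0, while the median over all genes was 0.0047. A p that misses the threshold does not show that levels were the same, but the intervals bound the difference. In all 47 genes the 95% interval lay within 0.5 of 0 on the log2 scale, a change of 1.41-fold, as it did in 92.3% of all genes. These intervals are for 1 gene at a time and are not adjusted for their number. The number of arrays limits their width, and standard errors ran from 0.069 to 0.13.

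**Figure D1:**
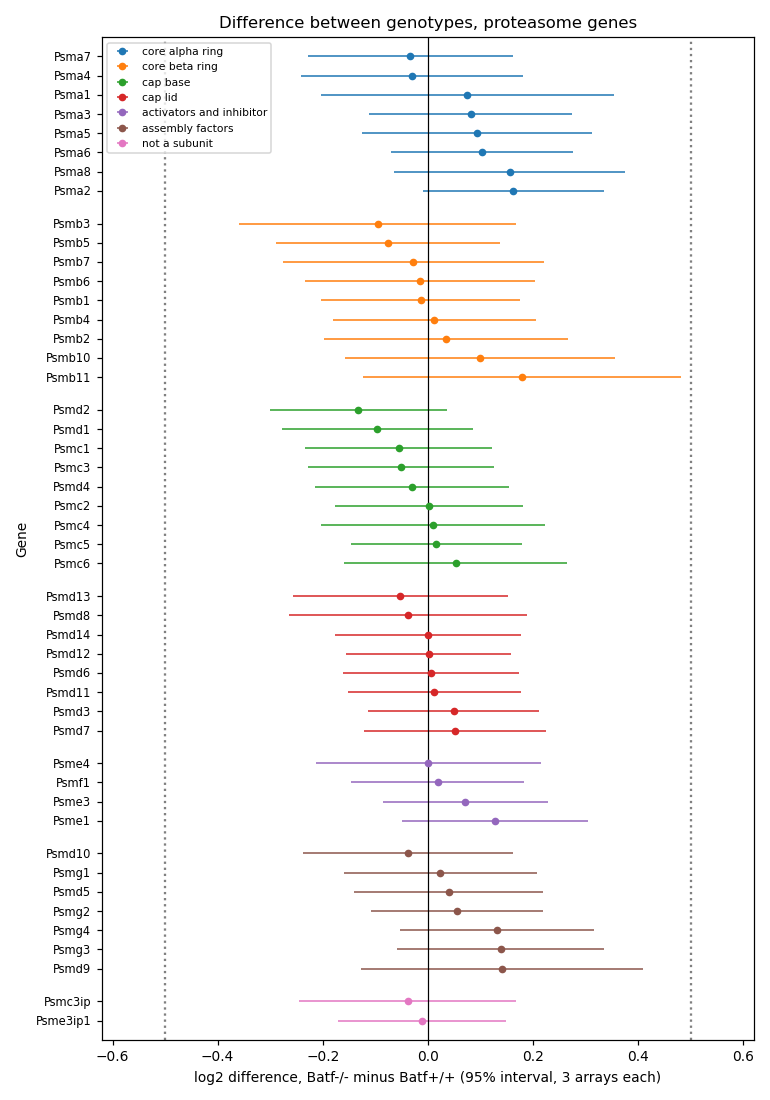
Log2 difference between genotypes (x axis, Batf-/- minus Batf+/+) for each of the 47 proteasome genes (y axis), grouped and coloured by class. Points are limma estimates from 3 arrays of each genotype, bars are 95% intervals and dotted lines mark 0.5 on either side of 0. Every bar crosses 0 and lies inside the dotted lines.

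**Figure D2:**
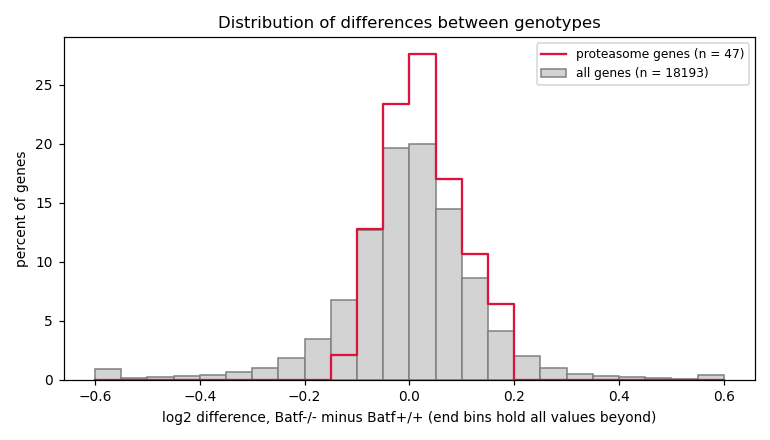
Share of genes (y axis, percent) by log2 difference, Batf-/- minus Batf+/+ (x axis), in bins of 0.05, for all 18193 genes (grey bars) and the 47 proteasome genes (red line). The proteasome genes lie between -0.13 and 0.18, near the middle of the distribution, and the end bins collect all larger differences.

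Values on single arrays are on a log2 scale on which each probe set has its Batf+/+ median at 0, so they compare arrays for a gene and say nothing about how abundant a transcript is. Whether defining markers of Treg cells were expressed at all could not be read from such values. Batf was -0.13, 0 and 0.14 on the Batf+/+ arrays and -3.13, -3.16 and -2.37 on the Batf-/- arrays (log2 difference -2.89 ± 0.19 SE, limma adjusted p = 0.000202), and so followed the labels. Whether its probe set lies in the deleted part was not analysed here. Markers of other cells gave 0 calls among 7 B cell, 8 myeloid, 3 CD8 T or NK cell and 2 red cell genes measured, with medians of -0.0035, 0.075, 0.0068 and -0.0095, and 0 at an unadjusted p below 0.05 by limma. Among the Batf-/- arrays the median of each of these lists was highest on array 3, at 0.13, 0.31, 0.030 and 0.081 in the same order. That array held the highest Batf-/- value of 41.1% of all genes. Among the Batf+/+ arrays, array 3 had the highest median for the B cell (0.036), myeloid (0.059) and red cell (0.11) lists. For the CD8 T and NK cell list it did not. The myeloid median was -0.19 on Batf-/- array 1. How far this bears on the proteasome values of array 3 was not tested. Of 6 Treg and T cell markers 0 passed the threshold either, but the median was -0.11 and the arrays of 3, Foxp3, Ikzf2 and Cd3e, were all lower in Batf-/- cells. By limma Ikzf2 was at -0.51 (adjusted p = 0.0526), Foxp3 at -0.12 (adjusted p = 0.892) and Il2ra, the marker whose Batf-/- arrays were all higher, at 0.21 (adjusted p = 0.394), and the part of these differences in the values below was not tested. RNA came from bulk samples, in which fewer cells of a type and less RNA per cell cannot be told apart.

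The alpha ring had the highest median of the core and cap, 0.087, with 6 of its 8 genes above 0 and 0 past the threshold. Without probe sets of shared sequence that median was 0.15. The sets left out included those marked _a, for transcripts of the same gene, such as a Psma3 set at -0.015. Other alternatives gave a lower median, 0.067 after quantile normalization and 0.051 without both arrays numbered 3. With each array left out in turn the median ran from 0.056 to 0.13. Psma2, an alpha ring subunit, was -0.035, 0 and 0.028 on the Batf+/+ arrays and 0.11, 0.11 and 0.26 on the Batf-/- arrays. All its Batf-/- arrays were above all its Batf+/+ arrays. It differed by 0.16 ± 0.076 on the log2 scale (SE over 3 arrays a genotype, 95% interval -0.010 to 0.33), with an adjusted p of 0.709 by limma and the lowest unadjusted p of the 47 genes, 0.0622. With the array number as a block that unadjusted p was 0.0372 and the adjusted p 0.352. Psma6 was the other alpha ring gene whose arrays did not overlap, at 0.055, -0.058 and 0.037 in Batf+/+ cells against 0.077, 0.072 and 0.19 in Batf-/- cells (log2 difference 0.10 ± 0.077 SE, limma adjusted p = 0.943). Its 4 probe sets gave differences between 0.026 and 0.25.

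Psma7 had the lowest value of the alpha ring. It was -0.070, 0 and 0.12 on the Batf+/+ arrays and 0.020, -0.13 and 0.056 on the Batf-/- arrays, so the genotypes overlapped (-0.033 ± 0.086 SE, limma adjusted p = 0.9999). Psma4 was at -0.030, Psma1 at 0.075, Psma3 at 0.081 and Psma5 at 0.094, all with overlapping arrays. Psma1, the alpha ring gene with the widest spread in Batf+/+ cells (0.24 SD, n = 3), read 0.35 on Batf+/+ array 1 and -0.029 and -0.096 on the others, with 4 probe sets between -0.030 and 0.15. Psma8, an alpha subunit known from germ cells, was at 0.16 ± 0.097 (SE, limma adjusted p = 0.890) with overlapping arrays, and its highest value was 0.33 on Batf-/- array 2. Whether Psma8 was expressed above background cannot be read from these centred values.

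In the beta ring 4 genes were above and 5 below 0, with a median of -0.014 and 0 past the threshold, and all 9 had overlapping arrays. Leaving out Batf+/+ array 3 put that median at 0.052, and leaving out array 1 or 2 of the Batf-/- group put it at 0.014 or 0.029. The 3 standard catalytic subunits were each slightly below 0. Psmb5, the chymotrypsin-like subunit that is the main target of proteasome inhibitor drugs, was -0.048, 0 and 0.24 on the Batf+/+ arrays and -0.041, -0.060 and 0.063 on the Batf-/- arrays. Only Batf+/+ array 3 stood above the rest, and the log2 difference was -0.077 ± 0.094 (SE, 95% interval -0.29 to 0.14, limma adjusted p = 0.9999). Psmb6, the caspase-like subunit, was 0, -0.026 and 0.20 in Batf+/+ cells and -0.015, -0.044 and 0.19 in Batf-/- cells (-0.015 ± 0.096 SE). Here array 3 was the high one in both genotypes. Psmb7, the trypsin-like subunit, was 0.27, -0.10 and 0 in Batf+/+ cells and 0.047, -0.084 and 0.12 in Batf-/- cells (-0.028 ± 0.11 SE).

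Psmb10, the interferon-inducible counterpart of Psmb7 in the immunoproteasome, was -0.15, 0 and 0.10 on the Batf+/+ arrays and -0.072, 0.016 and 0.30 on the Batf-/- arrays. The genotypes overlapped, with Batf-/- array 3 above all other arrays, and the log2 difference was 0.099 ± 0.11 (SE, 95% interval -0.16 to 0.36, limma adjusted p = 0.999). Psmb11, the catalytic subunit known from thymic cortical epithelium, had the highest difference of the 47 genes. Whether Psmb11 was expressed above background cannot be read from these centred values. It was -0.20, 0 and 0.13 in Batf+/+ cells and -0.078, 0.13 and 0.41 in Batf-/- cells, so its arrays overlapped (0.18 ± 0.13 SE, 95% interval -0.12 to 0.48, limma adjusted p = 0.943). With the array number as a block its unadjusted p was 0.0332 and its adjusted p 0.337, and these 2 genes, Psma2 and Psmb11, were the only members below 0.05 unadjusted in that fit, where 12.5% of all genes were. Psmb3, a beta subunit without a catalytic site, was lowest in the ring, at -0.12, 0 and 0.24 against -0.14, -0.16 and 0.13 (-0.096 ± 0.12 SE, limma adjusted p = 0.9999). The remaining beta subunits without a catalytic site were near 0, with Psmb1 at -0.014, Psmb4 at 0.012 and Psmb2 at 0.035.

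The base of the cap had the lowest median among subunit classes, -0.030, with 4 genes above and 5 below 0 and 0 past the threshold, and the median was 0.011 without Batf+/+ array 3. Psmd2, the scaffold Rpn1 that docks ubiquitin shuttles, was the lowest of the 47 genes. It was 0, -0.033 and 0.090 on the Batf+/+ arrays and -0.073, -0.16 and -0.11 on the Batf-/- arrays. All Batf-/- arrays were below all Batf+/+ arrays, which held for no other member, and the log2 difference was -0.13 ± 0.074 (SE, 95% interval -0.30 to 0.036, limma adjusted p = 0.835). Both its probe sets were below 0, at -0.19 and -0.077. Psmd1, the related scaffold Rpn2, was at -0.097 with overlapping arrays, and Psmd4, the ubiquitin receptor Rpn10, at -0.030. The ATPases that thread the substrate into the core lay on both sides of 0, with Psmc1 at -0.056, Psmc3 at -0.051, Psmc2 at 0.0023, Psmc4 at 0.010 and Psmc5 at 0.016. Psmc6, the highest of the base, was 0.18, -0.14 and -0.026 in Batf+/+ cells and 0.073, 0.085 and 0.019 in Batf-/- cells (0.053 ± 0.093 SE, limma adjusted p = 0.9999). Its spread was wide in Batf+/+ cells (0.16 SD, n = 3) and small in Batf-/- cells (0.035 SD, n = 3).

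The lid carries the deubiquitinase of the cap. By gene it showed the narrowest range of the core and cap classes, from -0.053 to 0.051 with a median of 0.0037. All 8 genes had overlapping arrays. Psmd14, the deubiquitinase Rpn11, was 0, 0.14 and -0.044 on the Batf+/+ arrays and 0.066, 0.017 and 0.0080 on the Batf-/- arrays, with a log2 difference of -0.00019 ± 0.078 (SE, 95% interval -0.18 to 0.18). Psmd13 was the lowest of the lid, at -0.053, -0.0034 and 0.22 against -0.0081, -0.050 and 0.059 (-0.053 ± 0.090 SE, limma adjusted p = 0.9999). Psmd7, the partner of Psmd14, was the highest, at -0.050, -0.075 and 0.012 against 0.095, 0.0054 and -0.062 (0.051 ± 0.076 SE, limma adjusted p = 0.9999). The others were Psmd8 at -0.038, Psmd12 at 0.0013, Psmd6 at 0.0060, Psmd11 at 0.012 and Psmd3 at 0.049. Single probe sets of the lid lay farther apart than these means. Psmd11, the subunit Rpn6, had 8 probe sets that ran from -0.11 to 0.22. The 4 of Psmd13 ran from -0.21 to 0.044, and the 3 of Psmd7 from -0.034 to 0.13.

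All 4 activators and inhibitors were above 0, with a median of 0.045 and 0 past the threshold. Psme1, the alpha chain of the interferon-inducible PA28 activator of cytosolic proteasomes, was -0.063, 0 and 0.052 on the Batf+/+ arrays and 0.094, 0.064 and 0.22 on the Batf-/- arrays. Its Batf-/- arrays were all above its Batf+/+ arrays, and the log2 difference was 0.13 ± 0.078 (SE, 95% interval -0.049 to 0.31, limma adjusted p = 0.882). Psme3, the nuclear PA28 gamma chain, also had arrays that did not overlap, at 0.034, -0.021 and 0.020 against 0.10, 0.081 and 0.063 (0.071 ± 0.069 SE, limma adjusted p = 0.988). Psme4, the large activator PA200, was 0.12, -0.072 and -0.056 in Batf+/+ cells and 0.15, -0.057 and -0.091 in Batf-/- cells (0.0010 ± 0.094 SE). Array 1 was its highest in both genotypes. Psmf1, which encodes the inhibitor PI31, was at 0.040, -0.073 and -0.020 against -0.036, 0.0089 and 0.030 (0.019 ± 0.072 SE).

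The assembly factors had a median of 0.055, with 6 of 7 above 0 and 0 past the threshold. Psmd9, a chaperone of the cap base, had the highest value, but also the widest spread of the class. It was 0.055, -0.0024 and -0.29 on the Batf+/+ arrays and 0.087, 0.22 and -0.12 on the Batf-/- arrays, and its arrays overlapped (0.14 ± 0.12 SE, limma adjusted p = 0.968). Its 3 probe sets disagreed in sign, from -0.084 to 0.34. Probe sets lay on both sides of 0 in 14 of the 26 members with over 1, Psmd9 included. Psmg4, a chaperone of the core, was -0.011, -0.11 and 0.0086 against 0.023, 0.056 and 0.20, with no overlap (0.13 ± 0.081 SE, limma adjusted p = 0.887). The other core chaperones were Psmg1 at 0.024, Psmg2 at 0.055 and Psmg3 at 0.14. Of the other cap chaperones, Psmd5 was at 0.040 and Psmd10 lowest in the class, at 0, -0.043 and 0.080 against -0.036, -0.15 and 0.11 (-0.037 ± 0.088 SE, limma adjusted p = 0.9999). The 2 genes that are not subunits, each named for binding a member, were also near 0. Psmc3ip, which encodes a meiotic recombination protein, was -0.044, -0.086 and 0.16 against 0.052, -0.12 and -0.018 (-0.038 ± 0.091 SE), and Psme3ip1 was 0, 0.034 and -0.041 against -0.0079, 0.014 and -0.048 (-0.011 ± 0.070 SE).

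Arrays of the genotypes overlapped in 41 of the 47 genes (16002 of 18193 over all genes) and did not overlap in the other 6. In 5 of them, Psma2, Psma6, Psme1, Psme3 and Psmg4, the Batf-/- arrays were all higher (10.6% of members, where 5.5% of all genes showed this), and in 1, Psmd2, all lower (2.13%, against 6.55% of all genes). None of the 6 passed the adjusted threshold. Of the 100 probe sets taken one by one, 58 were above and 42 below 0. At an unadjusted p below 0.05 there were 2 of them (6.9% of all probe sets), 1 of 8 for Psmd11 at 0.22 and 1 of 2 for Psmg4 at 0.22, and 0 passed an adjusted p below 0.05 (0.713% of all probe sets).

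Many members shared differences between arrays of the same genotype. Of the 47 genes, 30 had their highest Batf+/+ value on array 3 (63.8%, against 43.1% of all genes), and 28 their highest Batf-/- value on array 3 (59.6%, against 41.1% of all genes). Array 3 was highest in both genotypes for 22 genes, 46.8% of members and 22.4% of all genes. The beta ring showed this most fully: all 9 of its genes were highest on array 3 among the Batf-/- arrays, and 7 among the Batf+/+ arrays. The median of the beta ring was -0.048, 0 and 0.13 on the Batf+/+ arrays and -0.016, -0.051 and 0.16 on the Batf-/- arrays, so that array 3 was high and the genotypes interleaved. These are counts over genes of the same arrays, which are not independent replicates, and no test was made of them. What the arrays numbered 3 share is not given in the sources used here. Without both arrays numbered 3, an alternative added after the values were seen, 0 members passed at an adjusted or an unadjusted p, and the median over members was 0.014.

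**Figure D3:**
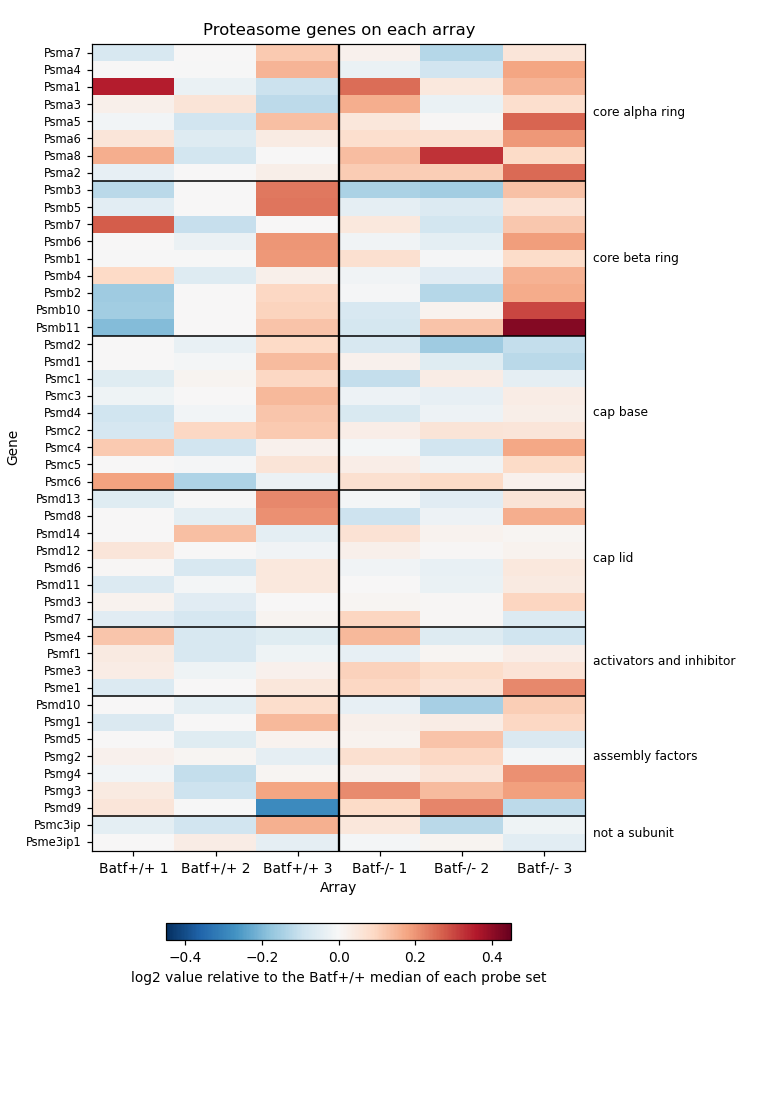
Log2 value relative to the Batf+/+ median of each probe set (colour) for the 47 proteasome genes (rows, by class) on the 3 Batf+/+ and 3 Batf-/- arrays (columns). Array 3 of both genotypes is red for most core genes, as in the beta ring, where all 9 genes have their highest Batf-/- value there.

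**Figure D4:**
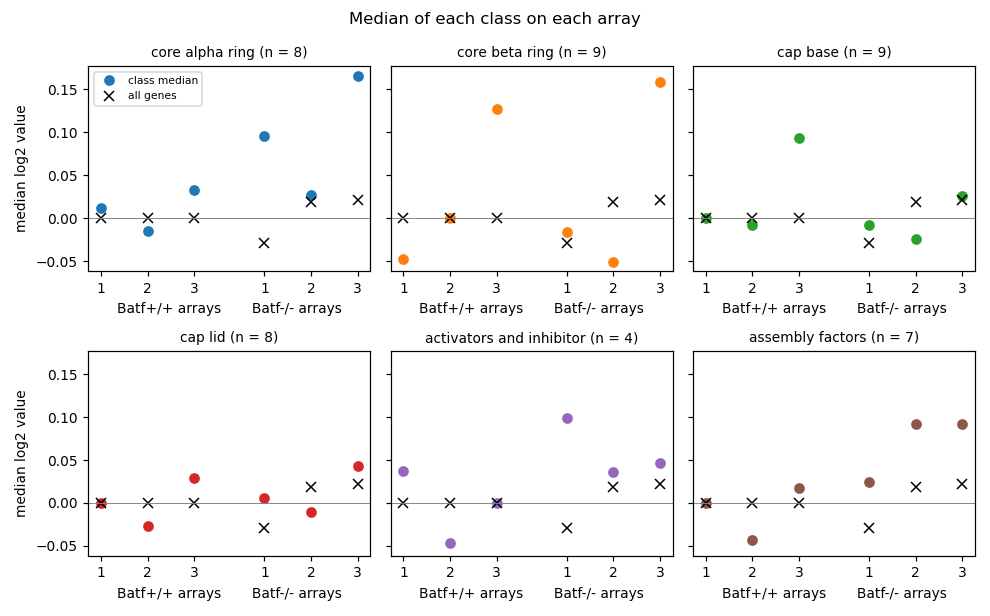
Median log2 value (y axis) of 6 classes of proteasome genes (coloured points) and of all genes (crosses) on each array (x axis). The beta ring is at 0.13 and 0.16 on array 3 of the 2 genotypes and at or below 0 on the other arrays.

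Taken within a number, the differences were small as well. The median difference over the 47 genes, Batf-/- minus Batf+/+, was 0.022 between arrays 1, 0.015 between arrays 2 and 0.028 between arrays 3, and 28, 27 and 26 genes were above 0. In 11 genes all 3 numbered differences were above 0 (23.4%, against 17.3% of all genes), and in 5 all were below 0 (10.6%, against 17.0% of all genes).

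The catalytic subunits of the immunoproteasome that the naming rule leaves out, Psmb8 and Psmb9, resembled Psmb10 in being highest on Batf-/- array 3. Psmb8 was 0.059, -0.032 and 0.037 in Batf+/+ cells and 0.036, -0.044 and 0.30 in Batf-/- cells (log2 difference 0.076 ± 0.099 SE, limma adjusted p = 0.9999). Psmb9 was -0.12, 0 and 0.083 against 0.17, 0.013 and 0.55 (0.25 ± 0.13 SE, limma adjusted p = 0.796). For Psmb9, Batf-/- array 1 was also above all Batf+/+ arrays. Batf-/- array 3 was the highest of the 6 arrays for Psmb8, Psmb9, Psmb10 and Psme1, and the genotypes overlapped for the first 3 of these. It was also the highest of the 6 for standard subunits such as Psma2, Psma5, Psmb2 and Psmb4. Among the Batf-/- arrays, array 3 was highest for 59.6% of members and 41.1% of all genes. Of 13 measured genes of interferon-gamma induced antigen processing, Psmb8 and Psmb9 included and Psmb10 not, 0 passed the threshold, and the median was 0.029. At an unadjusted p below 0.05 there was 1, the transcription factor Irf1 (0.20 ± 0.083 SE, limma adjusted p = 0.571), named after its value was seen.

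Genes that act with the proteasome gave a similar picture. Of 14 measured regulators and partners 0 passed the threshold, and the median was 0.017. Nfe2l1 was at -0.079 ± 0.085 (SE, limma adjusted p = 0.997), and Pomp, the chaperone that completes the core, at -0.053 ± 0.097 (adjusted p = 0.9999). Nfe2l2, which encodes the related factor Nrf2, had the highest value of the list, 0.32 ± 0.21 (limma adjusted p = 0.908), and spread widely, at 0.020, -0.027 and -0.78 in Batf+/+ cells and 0.37, -0.018 and -0.16 in Batf-/- cells. Of 9 measured genes of ubiquitin activation and shuttling 0 passed, with a median of -0.015. Of 19 measured proliferation genes 0 passed, with a median of 0.011. Their median was 0.0059, -0.027 and 0.0074 on the Batf+/+ arrays and -0.026, -0.017 and 0.11 on the Batf-/- arrays. At an unadjusted p below 0.05 by limma these 3 lists held 0, 0 and 1 gene, the last being the mitotic kinase Aurkb (0.30 ± 0.13 SE, adjusted p = 0.583), named after its value was seen.

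Promoter sequences were available for 39 of the 47 genes, as RefSeq windows of 300 bases (250 before and 50 after the gene start, GRCm38.p6), and were searched on both strands for 3 motifs. The antioxidant response element core TGACNNNGC was in 6 of the 39 genes (15.4%), where 14.0% of all genes with a window had it. The AP-1-like pattern TGANTCA was in 2 of 39 (5.13%, against 8.97% of all genes). It allows any middle base and so is broader than the element that Batf binds with Jun proteins. A repeat of TTTC with 2 bases between the copies, of the type that interferon regulatory factors bind, was in 5 of 39 (12.8%, against 3.99%). No test was made of these shares, a match is not a bound site, and a window without a match says only that these letters are not in it. The members with a TGANTCA match were Psmb5 and Psmd9, with log2 differences of -0.077 and 0.14. The match was TGAATCA in Psmb5, from base 42 after the gene start, and TGAGTCA in Psmd9, from base -126. Their windows are shown because they hold this AP-1-like pattern. That of Psme1 is shown because its arrays did not overlap and its repeat is near the start. Capitals mark every match to the 3 motifs, none of which overlap here.
Psmb5, chr14:54617946-54618245, minus strand: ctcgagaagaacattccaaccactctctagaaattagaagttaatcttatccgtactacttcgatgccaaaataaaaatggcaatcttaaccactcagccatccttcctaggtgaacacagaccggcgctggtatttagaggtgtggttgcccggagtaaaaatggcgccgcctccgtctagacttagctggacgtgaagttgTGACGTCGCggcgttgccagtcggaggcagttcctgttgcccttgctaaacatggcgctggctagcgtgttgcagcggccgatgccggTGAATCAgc
Psmd9, chr5:123227940-123228239, plus strand: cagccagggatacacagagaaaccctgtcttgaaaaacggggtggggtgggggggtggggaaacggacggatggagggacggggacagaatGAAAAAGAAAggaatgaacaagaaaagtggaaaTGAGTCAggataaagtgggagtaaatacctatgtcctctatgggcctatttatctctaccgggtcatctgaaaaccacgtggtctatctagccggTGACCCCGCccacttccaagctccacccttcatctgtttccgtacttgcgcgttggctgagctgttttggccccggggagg
Psme1, chr14:55578244-55578543, plus strand: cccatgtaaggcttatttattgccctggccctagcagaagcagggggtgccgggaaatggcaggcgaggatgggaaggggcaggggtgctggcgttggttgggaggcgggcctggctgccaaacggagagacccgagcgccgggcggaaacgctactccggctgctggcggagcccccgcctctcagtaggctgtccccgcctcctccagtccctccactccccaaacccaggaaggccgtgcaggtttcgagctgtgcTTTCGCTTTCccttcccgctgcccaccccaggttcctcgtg

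The other antioxidant element matches lay in genes of the core, the cap and an activator, shown with the bases around them so that the variable middle letters can be compared. The match is in capitals and begins at base -9 from the gene start in Psmb6, -227 in Psmc6, -247 in Psmd12 and -7 in Psme4.
Psmb6, chr11:70525336-70525368, plus strand: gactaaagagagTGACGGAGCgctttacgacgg
Psmc6, chr14:45329585-45329617, plus strand: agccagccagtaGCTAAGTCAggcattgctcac
Psmd12, chr11:107479278-107479301, plus strand: tctGCTGTGTCAcatttgcccccc
Psme4, chr11:30771756-30771788, plus strand: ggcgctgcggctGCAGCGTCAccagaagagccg
Over the 6 genes with this element the log2 differences ran from -0.077 (Psmb5) to 0.14 (Psmd9), with arrays that overlapped in each of them. The repeat of the interferon regulatory factor type was also found in Psmb3, Psmd4 and Psmg4, shown because Psmg4, like Psme1, had arrays that did not overlap while the arrays of Psmb3 and Psmd4 did.
Psmg4, chr13:34162967-34163000, plus strand: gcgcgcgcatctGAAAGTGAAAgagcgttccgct
Psmb3, chr11:97703259-97703292, plus strand: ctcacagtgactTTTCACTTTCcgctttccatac
Psmd4, chr3:95042673-95042706, minus strand: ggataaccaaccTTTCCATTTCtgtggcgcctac
Their log2 differences were 0.13, -0.096 and -0.030, and over the 5 genes with the repeat, Psme1 and Psmd9 included, the values ran from -0.096 to 0.14. Psmd9 also had overlapping arrays. Arrays did not overlap in Psma2, Psma6, Psme3 and Psmd2, whose windows lack the repeat. A link between the repeat and the overlap of arrays was not tested.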

How the data were processed

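RMA, which the authors ran, gave the deposited log2 values, per the submitters' processing notes, where no version is named. The log base was taken as 2, as RMA gives it. In all 45101 probe sets the median of the 3 Batf+/+ arrays is exactly 0, so values were centred by a step not given in the sources used here. Levels of different genes cannot be compared, and no filter on dim probe sets could be set. The platform annotation named the probe sets, and those with several genes (932) were left out. A gene's value is the mean of its probe sets, and 26 of the 47 members have over 1. All 47 matched the gene table by Entrez identifier.

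Genotypes were compared with limma 3.58.1 in R 4.3.3 over all 18193 genes, two-sided, with Benjamini-Hochberg adjustment, after the code was tested on simulated data. Errors are moderated standard errors, and SDs are over arrays. The members and lists were chosen with earlier results of these data known. Every member is named. Values per array are given for the highest and lowest of each class, members whose arrays did not overlap, and a fixed set.

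The same numbers occur in the titles of both genotypes. The deviations from the group means of arrays with the same number correlated over all genes at 0.407, 0.154 and 0.413, each above 0.1. Arrays with different numbers were not compared in this way. On this basis, from the values alone, the numbers were treated as pairs in the replicate block and in the numbered differences. The fit without the number stayed the main one, so its p-values and intervals take no account of pairing.

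Alternatives were every probe set tested, no probe sets of shared sequence, quantile normalization, equal array medians, array weights, the replicate block, a trended and robust prior, each array left out, and both arrays numbered 3 left out. Probe sets of shared sequence were those with a letter such as a, s or x before _at in the name. The letter a marks sets for several transcripts of the same gene.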

Additional observations from a re-analysis of the deposited data

How the results depend on the processing

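Under all 13 alternatives fitted by gene, and with every probe set tested, 0 members passed an adjusted p below 0.05, and the lowest adjusted p of a member was 0.337, with the replicate block. Members higher at an unadjusted p below 0.05, 0 as reported, numbered 2 with the replicate block (Psma2 and Psmb11), 1 with array weights (Psma8), 2 probe sets when every probe set was tested, and between 0 and 1 when an array was left out, being Psmg3 without Batf+/+ array 3 and Psmb11 without Batf-/- array 1. Of all genes 12.5% did so with the block in either direction, 10.4% with array weights, and 7.17% and 10.3% without those 2 arrays. The median over all members moved by less than the spread between arrays, and was -0.00056 without Batf-/- array 3. Without probe sets of shared sequence, which leaves 42 members, the medians were 0.15 for the alpha ring, 0.034 for the lid and 0.020 for the pair of genes that are not subunits. Without the arrays numbered 3 that of the assembly factors was 0.099 and that of the alpha ring 0.051. The alpha ring median was 0.067 after quantile normalization and ran from 0.056 to 0.13 with each array left out in turn. With each array left out in turn the median of the cap base ran from -0.078 to 0.011, its sign turning only without Batf+/+ array 3, and that of the lid from -0.0023 to 0.035. The median of the beta ring ran from -0.051 to 0.052 and was above 0 without Batf+/+ array 3, Batf-/- array 1 or Batf-/- array 2. Values of single members changed sign in 3 of 47 genes after quantile normalization and in up to 14 of 47 when Batf+/+ array 3 was left out. These included Psmb3 (-0.096 as reported) without that array and Psmb10 (0.099) without Batf-/- array 3. The cause of these shifts was not tested. Signal over background is not known, because levels were centred.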
